A study of Homo sapiens with 6 samples.

Results

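The mRNAs of 52 genes of the RNA decay machinery were followed in doxorubicin-resistant MDA-MB-231-DR cells, which derive from MDA-MB-231, an established line of triple-negative breast cancer. The members were chosen by gene name from a hand-written list covering the RNA exosome, the CCR4-NOT deadenylase complex, the decapping enzymes and the factors of nonsense-mediated decay (NMD). Each name matched 1 of the 58302 genes in the deposited table, and all 52 had enough reads to be tested. There were 3 control libraries, whose labels name no agent, and 3 libraries of cells given cyperotundone (CYT), a sesquiterpenoid of sedge. According to the methods of the study, resistant cells were kept in a low concentration of doxorubicin, so both groups share that background. The dose and duration of CYT for these libraries are not given in the sources used here, nor is it stated for these libraries that replicates came from separate cultures, although the statistical methods speak of independent experiments in general. P-values therefore measure the spread between these libraries, which may be technical. Fewer cells with an mRNA and less of it in each cell cannot be told apart in bulk RNA.

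Most eukaryotic mRNAs are destroyed after their poly(A) tail has been shortened by the deadenylases PAN2-PAN3, CCR4-NOT and PARN. The body is then degraded from the 5′ end by XRN1, after DCP2 has removed the cap, or from the 3′ end by the exosome. The exosome is a barrel of inactive subunits with nucleases attached, DIS3L in the cytoplasm and DIS3 and EXOSC10 in the nucleus. NMD removes transcripts with premature stop codons through the helicase UPF1, the kinase SMG1 and the endonuclease SMG6, and the ZFP36 proteins bring deadenylases to mRNAs with AU-rich elements, many of which encode cytokines and growth regulators.

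Summed gene counts lay between 14050849 and 17770102 for the control group and between 13056270 and 14106017 for the CYT group. The line markers VIM, CD44, KRT8 and KRT18 each had at least 1166 counts in every library, whereas ESR1 and PGR, which triple-negative cells lack, had at most 4. Of 5 markers of leukocytes, endothelium, fibroblasts and hepatocytes, PECAM1 reached 35 counts and the others at most 14, with ALB at 0 in control and 9 to 14 in CYT libraries. Levels are given as CPM, counts scaled to library size with TMM normalization, unless FPKM, which also divides by gene length, is named. A gene was called higher or lower when edgeR's quasi-likelihood test gave a Benjamini-Hochberg adjusted p under 0.05 over all 15572 genes tested. CYT replicate 2 stood apart from the other CYT libraries, with r = 0.905 and 0.904 against them across genes on the log2 scale, compared with 0.970 between CYT replicates 1 and 3.

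To show the sequence next to the genes whose levels moved, the 150 bases before the RefSeq transcription start (GRCh38.p14) are printed for the 5 exosome barrel genes that were called lower and for 2 of the 3 genes called higher, CNOT8 and UPF2. They are written 5′ to 3′ on the strand of the gene. Capitals mark matches on either strand to 1 of 6 short motifs. These were the CCAAT box (spelled CCAAT), the GC box (GGGCGG), the ETS core (CCGGAAG), the E-box (CACGTG), the core of the cAMP response element (TGACG) and the TATA box (TATAAA). Matches do not overlap one another in the windows shown. The windows lie at EXOSC3 (chr9:37785093-37785242, minus strand), EXOSC5 (chr19:41397360-41397509, minus strand), EXOSC6 (chr16:70251941-70252090, minus strand), EXOSC7 (chr3:44976094-44976243, plus strand), EXOSC8 (chr13:37000636-37000785, plus strand), CNOT8 (chr5:154858099-154858248, plus strand) and UPF2 (chr10:12043171-12043320, minus strand).
EXOSC3: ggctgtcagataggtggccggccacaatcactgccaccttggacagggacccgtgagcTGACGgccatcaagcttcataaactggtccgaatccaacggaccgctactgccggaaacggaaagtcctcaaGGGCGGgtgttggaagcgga
EXOSC5: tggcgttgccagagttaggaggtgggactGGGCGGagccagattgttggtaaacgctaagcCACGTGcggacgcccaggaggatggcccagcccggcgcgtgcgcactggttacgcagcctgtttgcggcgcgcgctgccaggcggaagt
EXOSC6: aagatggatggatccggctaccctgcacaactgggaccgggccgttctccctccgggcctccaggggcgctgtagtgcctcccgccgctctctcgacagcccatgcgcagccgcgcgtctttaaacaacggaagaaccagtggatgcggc
EXOSC7: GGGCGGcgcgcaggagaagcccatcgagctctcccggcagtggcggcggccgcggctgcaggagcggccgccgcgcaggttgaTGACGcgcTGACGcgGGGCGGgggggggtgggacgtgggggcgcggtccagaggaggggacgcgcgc
EXOSC8: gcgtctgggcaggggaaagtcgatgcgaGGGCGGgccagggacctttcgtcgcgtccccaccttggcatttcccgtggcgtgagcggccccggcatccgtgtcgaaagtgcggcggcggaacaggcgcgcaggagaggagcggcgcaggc
CNOT8: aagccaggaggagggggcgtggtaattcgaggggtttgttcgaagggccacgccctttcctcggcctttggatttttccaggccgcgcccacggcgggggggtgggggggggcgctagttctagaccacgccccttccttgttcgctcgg
UPF2: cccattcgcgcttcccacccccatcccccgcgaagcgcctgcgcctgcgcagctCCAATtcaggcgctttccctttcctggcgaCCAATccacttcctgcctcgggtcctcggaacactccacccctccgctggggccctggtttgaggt
The windows of EXOSC3, EXOSC5, EXOSC7 and EXOSC8 hold a GC box, and that of EXOSC6 holds none of the 6 motifs. UPF2 has 2 CCAAT boxes, and CNOT8 has no match. Of the 46 members with a promoter entry, 27 (58.7%) had a GC box in this window, compared with 36.8% of all 35116 promoters. A CCAAT box was present in 32.6% of them and in 23.5% of all promoters, and a TATA box in 0 of the 46 and in 6.7% of all promoters. Among the 10 members called lower, 7 had a GC box and 1 a CCAAT box. For the 34 members with an entry that were not called, the counts were 20 and 13. A match is a description of letters and not evidence of a bound factor.

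CYT-treated cells had less mRNA for 10 of the 52 RNA decay genes and more for 3. The genes that fell were 5 of the 9 exosome barrel and cap subunits (EXOSC3, EXOSC5, EXOSC6, EXOSC7 and EXOSC8), the nucleases EXOSC10 and DIS3L2, the exosome cofactor MPHOSPH6, the deadenylase PARN and the NMD factor SMG9. Those that rose were the deadenylase CNOT8 and the NMD factors UPF2 and SMG8. All 13 changed by more than 1 on the log2 scale. Of all genes tested, 28.6% were called, 12.9% lower and 15.7% higher, so the 10 lower members (19.2%) lie somewhat above that background and the 3 higher members (5.77%) below it. The 13 members past both criteria compare with 27.4% of all genes. Over the 52 members the median log2 fold change was -0.092, and over all genes tested it was 0.0064. A log2 fold change below 0 was found in 28 of the 52 and in 49.7% of all genes. In 14 members every CYT library lay below every control library, against 22.7% of all genes, and in 5 every CYT library lay above, against 23.4%. With the replicate number as a block, 14 members were called lower and 5 higher, against 19.8% of all genes called lower and 20.04% called higher in that fit.

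**Figure D1:**
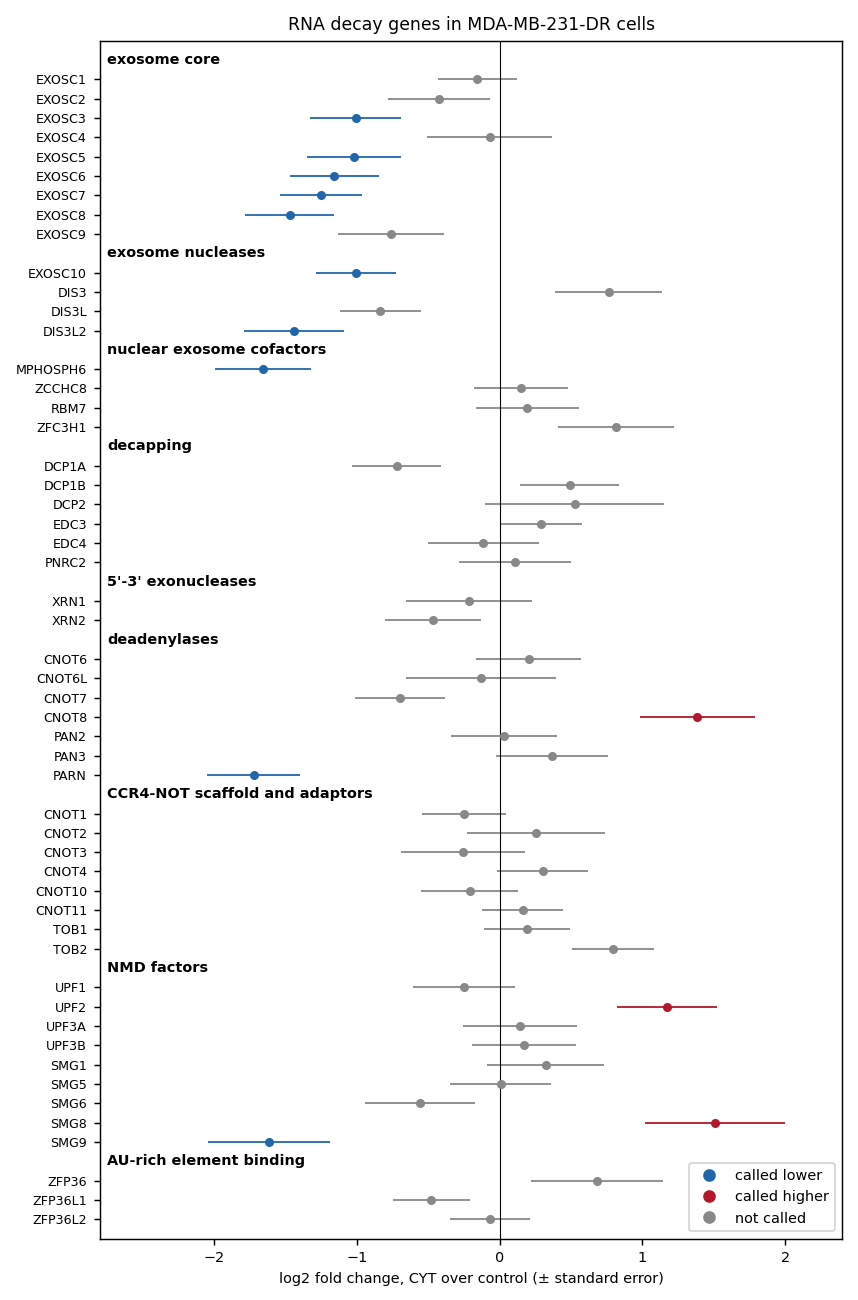
Each point is the log2 fold change of 1 RNA decay gene in CYT over control cells (horizontal axis, log2 units; 3 libraries a group), with its standard error as a bar, grouped by role. Blue points were called lower, red points higher and gray points not called by edgeR; the blue points gather in the exosome core, from -1.01 for EXOSC3 to -1.47 for EXOSC8.

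The barrel of the exosome is built from EXOSC4 to EXOSC9, and EXOSC1, EXOSC2 and EXOSC3 form the RNA-binding cap on it. Of these 9 genes, 5 were called lower and 0 higher, where 12.9% and 15.7% of all genes were. The 5 became 2 when any control library or CYT replicate 3 was left out, 3 without CYT replicate 1, with upper-quartile normalization or when a mean CPM of 5 was required, and 6 with the replicate block. Fits that gave 2 called 7.36% to 10.2% of all genes lower, those that gave 3 called 8.48% to 12.2%, and the block called 19.8%. All 9 log2 fold changes were below 0 in the TMM-scaled test, with a median of -1.01, though that of EXOSC4 turned to 0.082 with upper-quartile normalization, which moved the median of all genes from 0.0064 to 0.16. EXOSC8 (ENSG00000120699, chromosome 13, 36998816 to 37009613, plus strand) encodes a barrel subunit. It stood at 26.1, 34.6 and 32.3 CPM in control replicates 1 to 3 and at 9.87, 13.8 and 9.85 CPM in CYT replicates 1 to 3. All CYT libraries were below all control libraries, and the mean went from 31.0 ± 4.37 to 11.2 ± 2.28 CPM (SD, n = 3 in each group). The log2 fold change was -1.47 (standard error 0.31, edgeR adjusted p = 0.00747), or 2.77-fold lower, and the call held in all 15 alternative fits.

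EXOSC7 (ENSG00000075914, chromosome 3, 44975241 to 45036066, plus strand) is another barrel subunit. Its level was 61.1, 80.9 and 68.2 CPM in control libraries and 31.0, 31.7 and 25.4 CPM in CYT libraries, again without overlap. The log2 fold change was -1.25 (standard error 0.29, edgeR adjusted p = 0.0106), and the call was lost only when CYT replicate 3 was left out. EXOSC6 (ENSG00000223496, chromosome 16, 70246778 to 70251930, minus strand) measured 83.3, 93.5 and 84.5 CPM in control and 49.3, 26.8 and 41.1 CPM in CYT libraries. The log2 fold change was -1.16 (standard error 0.31, edgeR adjusted p = 0.0222), and leaving out any control library or CYT replicate 3 ended the call. The lowest library of EXOSC6 was CYT replicate 2, and the groups did not overlap.

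EXOSC5 (ENSG00000077348, chromosome 19, 41386374 to 41397479, minus strand) had the highest level per length among the barrel and cap genes in control cells, with 38.5 ± 5.29 FPKM in control and 18.9 ± 5.16 FPKM in CYT cells (SD, n = 3). In CPM it read 114, 119 and 96.9 in control and 54.7, 35.7 and 72.1 in CYT libraries. The log2 fold change was -1.02 (standard error 0.33, edgeR adjusted p = 0.0428). EXOSC3 (ENSG00000107371, chromosome 9, 37766978 to 37801437, minus strand) encodes a cap subunit and read 22.7, 19.1 and 25.5 CPM in control and 13.3, 11.6 and 8.50 CPM in CYT libraries. Its log2 fold change was -1.01 (standard error 0.32, edgeR adjusted p = 0.0405). The CYT libraries of both genes lay below every control library. Both sat close to the threshold: EXOSC3 was called in 6 and EXOSC5 in 9 of 15 alternative fits, and leaving out any of the 3 control libraries or CYT replicate 1 ended either call. EXOSC3 was also lost without CYT replicate 3, and both with upper-quartile normalization.

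The other 4 barrel and cap genes were not called. EXOSC9, a barrel subunit, had a log2 fold change of -0.76 (edgeR adjusted p = 0.154), and with the replicate block it was called lower (-0.80, edgeR adjusted p = 0.0423). Its control libraries read 14.4, 22.0 and 21.9 CPM and its CYT libraries 7.90, 16.4 and 10.2 CPM, so CYT replicate 2 overlapped control replicate 1. EXOSC4 lay between 52.6 and 113 CPM in control and between 41.7 and 123 CPM in CYT libraries, a spread wider than the difference of the means. The log2 fold changes of the cap genes EXOSC1 and EXOSC2 were -0.16 and -0.42. In control cells the 9 genes spanned 2.37 FPKM (EXOSC9) to 38.5 FPKM (EXOSC5), and after CYT treatment 1.43 FPKM (EXOSC9) to 30.8 FPKM (EXOSC4). Exons of 6 of these 9 genes overlap other annotated genes. EXOSC9 overlaps CCNA2 on the opposite strand, which had 1029 to 1779 counts in control and 231 to 496 in CYT libraries. EXOSC8 overlaps SUPT20H, also on the opposite strand, with 388 to 643 counts in control and 158 to 317 in CYT libraries. Counts of EXOSC8 itself were 421 to 649 and 124 to 194. EXOSC5 overlaps BCKDHA and EXOSC3 overlaps DCAF10, again on opposite strands, with 274 to 630 and 338 to 962 counts over all libraries. Use of strand in counting is not given in the sources used here, and the part of these overlaps in the results was not tested.

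**Figure D2:**
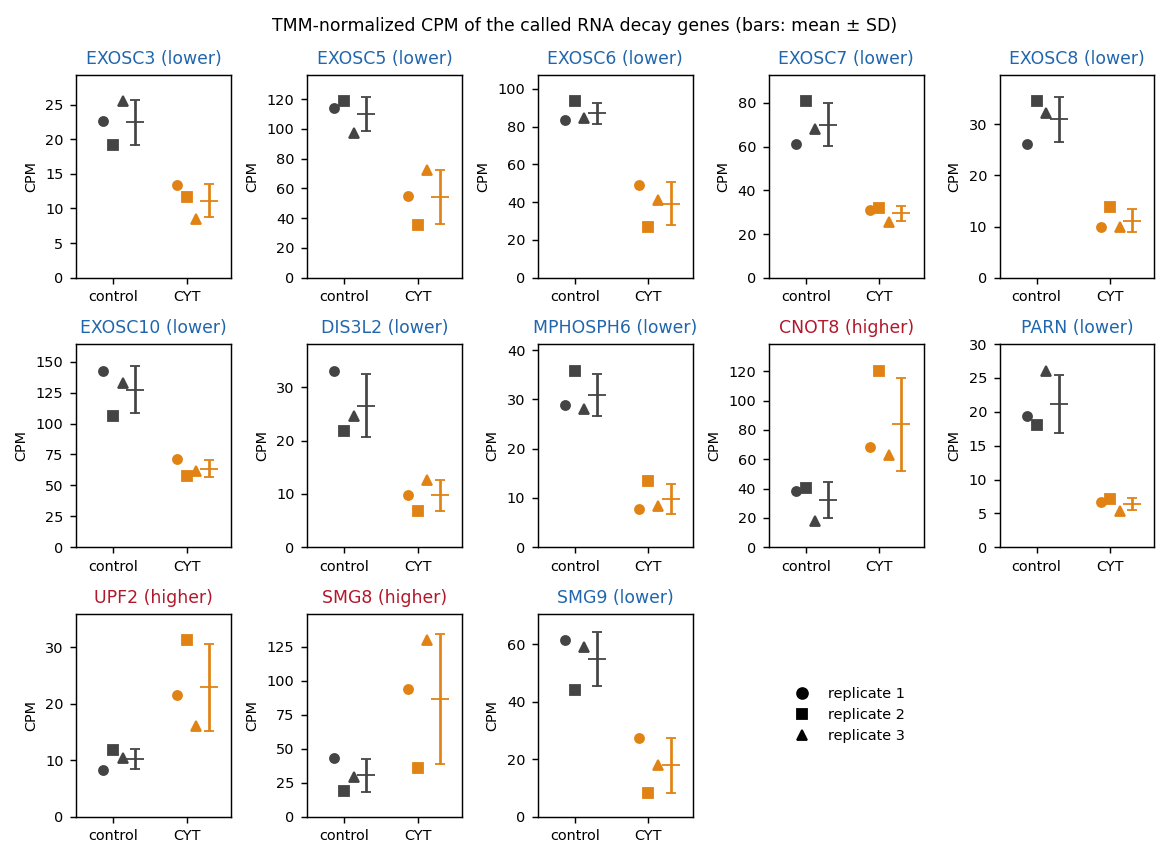
TMM-normalized CPM (vertical axis, from 0) of the 13 called RNA decay genes in each of 3 control and 3 CYT libraries, with replicates as circles, squares and triangles and the mean ± SD beside them. The groups are apart in 12 genes, and in SMG8 the CYT replicate 2 value of 35.6 lies below the control replicate 1 value of 43.5.

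Of the 4 nuclease genes, 2 were called lower and 0 higher, where 12.9% of all genes were lower. The 2 became 0 without control replicate 1, and 1 without control replicate 3, CYT replicate 1 or CYT replicate 3. EXOSC10 (ENSG00000171824, chromosome 1, 11066618 to 11099881, minus strand) encodes the nuclear exonuclease that sits on the exosome cap. It measured 143, 106 and 133 CPM in control and 71.2, 57.7 and 61.5 CPM in CYT libraries. Every CYT value was below every control value, with a log2 fold change of -1.01 (standard error 0.28, edgeR adjusted p = 0.0247). The call ended without control replicate 1, control replicate 3, CYT replicate 1 or CYT replicate 3. On the opposite strand, AL109811.2 shares exon sequence with EXOSC10 and had 25 to 30 counts in control and 341 to 394 in CYT libraries. Counts of EXOSC10 itself were 774 to 2304, and the part of this overlap was not tested.

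DIS3L2 (ENSG00000144535, chromosome 2, 231961245 to 232344350, plus strand) encodes an exonuclease that works without the exosome on uridylated RNA. The control libraries had 33.1, 21.8 and 24.6 CPM and the CYT libraries 9.87, 6.83 and 12.6 CPM. The log2 fold change was -1.44 (standard error 0.35, edgeR adjusted p = 0.0141), and the groups did not overlap, though the call ended without control replicate 1. DIS3L, the cytoplasmic exosome nuclease, read 42.2, 40.9 and 43.6 CPM in control and 21.5, 28.7 and 20.8 CPM in CYT libraries. The groups were apart, yet it just missed the threshold (log2 fold change -0.84, standard error 0.28, edgeR adjusted p = 0.0523) and was called lower with the replicate block (-0.85, edgeR adjusted p = 0.0234). DIS3, the main nuclease of the nuclear exosome, read 12.3, 20.1 and 18.1 CPM in control and 21.0, 42.6 and 22.2 CPM in CYT libraries. Its log2 fold change of 0.76 was not called (standard error 0.38, edgeR adjusted p = 0.157), although no CYT library lay below a control library, and it was 0.34 without CYT replicate 2. Per length, control cells held 14.4 FPKM of EXOSC10, 4.05 of DIS3L, 1.40 of DIS3L2 and 1.10 of DIS3. In CYT cells the means were 7.31, 2.32, 0.52 and 1.90 FPKM, with SDs from 0.12 for DIS3L2 to 0.93 for DIS3, so the neighbours DIS3 and DIS3L did not differ beyond their spread there.

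MPHOSPH6 (ENSG00000135698, chromosome 16, 82147798 to 82170226, minus strand) links the nuclear exosome to its helicase and had the second largest fall of all members. It read 28.8, 35.8 and 28.1 CPM in control and 7.69, 13.4 and 8.34 CPM in CYT libraries. The difference was 3.15-fold (log2 fold change -1.66, standard error 0.34, edgeR adjusted p = 0.00625), and it was called in all 15 alternative fits. The other 3 nuclear cofactors were not called. ZCCHC8 and RBM7, subunits of the NEXT complex that hands short nuclear RNAs to the exosome, had log2 fold changes of 0.15 and 0.19. ZFC3H1, the core of the PAXT connection for polyadenylated nuclear RNA, had 0.81 (edgeR adjusted p = 0.164), and with the replicate block it was called higher (0.75, edgeR adjusted p = 0.0437). Without CYT replicate 2 its log2 fold change was 0.33 (edgeR adjusted p = 0.457). ZFC3H1 overlaps THAP2 on the opposite strand, which had 27 to 67 counts in control and 258 to 562 in CYT libraries.

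None of the 6 decapping genes was called by edgeR (1 had an unadjusted p under 0.05), and 0 of them by DESeq2. DCP1A, an activator of the decapping enzyme DCP2, had 33.6, 41.5 and 32.9 CPM in control and 19.7, 28.3 and 17.5 CPM in CYT libraries. These values do not overlap, with a log2 fold change of -0.72 (edgeR adjusted p = 0.109), and the replicate block called the gene lower (-0.74, edgeR adjusted p = 0.0354). Its relative DCP1B had 4.65, 3.62 and 4.10 CPM in control and 6.35, 4.84 and 6.198 CPM in CYT libraries, a log2 fold change of 0.49 (edgeR adjusted p = 0.320). DCP2 itself varied more between replicates than between groups, with replicate 2 highest in both and a standard error of 0.63 on a log2 fold change of 0.52. The scaffold genes EDC3 and EDC4 and the UPF1 partner PNRC2 had log2 fold changes of 0.29, -0.11 and 0.11.

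The 5′ to 3′ exonucleases were not called either (0 with an unadjusted p under 0.05, 0 by DESeq2). XRN2, the nuclear enzyme, was the third highest member in control cells per length at 37.7 FPKM. Its control libraries read 123, 135 and 134 CPM and its CYT libraries 70.6, 140.4 and 72.1 CPM, so CYT replicate 2 alone lay above the control range. The log2 fold change was -0.47 (edgeR adjusted p = 0.328), and without CYT replicate 2 XRN2 was called lower (-0.88, edgeR adjusted p = 0.0193). On the opposite strand AL117332.1 shares exon sequence with XRN2 and had 20 to 28 counts in control and 311 to 558 in CYT libraries. The part of this overlap was not tested. XRN1, the cytoplasmic enzyme, had 0.59 FPKM in control and 0.51 FPKM in CYT cells.

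**Figure D3:**
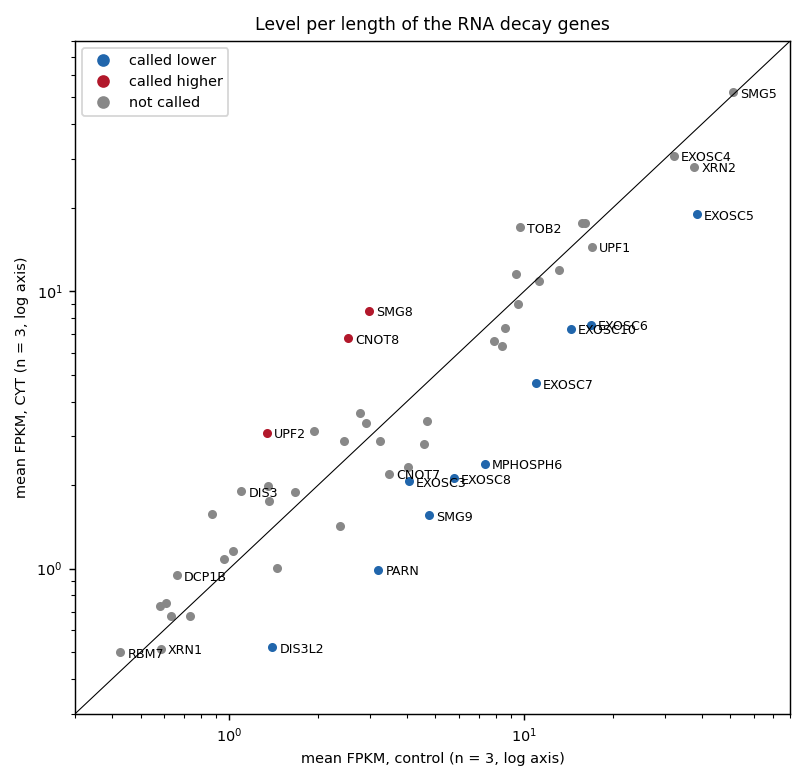
Mean FPKM of each of the 52 genes in control (horizontal) and CYT cells (vertical), both on log axes, with 3 libraries a group and the line of equal level. Blue, red and gray mark genes called lower, called higher and not called; SMG5 is at the top with 51.2 and 52.1 FPKM, and the gene farthest below the line is PARN, at 3.20 and 0.99 FPKM.

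The 7 deadenylase genes held the largest fall of all members and a rise. PARN (ENSG00000140694, chromosome 16, 14435701 to 14632728, minus strand) encodes a poly(A)-specific ribonuclease that also matures small nucleolar RNA and telomerase RNA. It read 19.4, 18.05 and 26.1 CPM in control and 6.63, 7.19 and 5.40 CPM in CYT libraries. The mean of 21.2 ± 4.31 CPM went to 6.41 ± 0.91 CPM (SD, n = 3), with a log2 fold change of -1.72 (standard error 0.32, edgeR adjusted p = 0.00447). That is 3.30-fold lower, and PARN was called lower in each of the 15 alternative fits, with log2 fold changes from -1.85 to -1.07.

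CNOT8 (ENSG00000155508, chromosome 5, 154857553 to 154876793, plus strand) encodes a catalytic deadenylase of CCR4-NOT. It read 38.1, 40.1 and 18.1 CPM in control and 68.2, 121 and 62.7 CPM in CYT libraries. All CYT libraries were above the control libraries, and the rise was 2.61-fold (log2 fold change 1.38, standard error 0.40, edgeR adjusted p = 0.0297). The call was lost without control replicate 1 or control replicate 3. FAXDC2, which shares exon sequence on the opposite strand, had 0 to 2 counts in control and 24 to 30 in CYT libraries. CNOT7, which takes the same place in the complex, read 43.2, 53.4 and 44.8 CPM in control and 24.8, 39.3 and 23.0 CPM in CYT libraries. These groups were also apart, in the opposite direction, with a log2 fold change of -0.70 (edgeR adjusted p = 0.126), and the replicate block called CNOT7 lower (-0.73, edgeR adjusted p = 0.0390). The other deadenylase pair of the complex, CNOT6 and CNOT6L, had log2 fold changes of 0.20 and -0.13. PAN2, the nuclease of the PAN complex, had 0.03, and its partner PAN3 had 0.36.

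In the unblocked edgeR test, 0 of the 8 genes of the CCR4-NOT scaffold and its adaptors were called (1 had an unadjusted p under 0.05). TOB2 was close to the threshold and was called higher in 9 of the 15 alternative fits. Among them were DESeq2, both limma fits and edgeR with upper-quartile normalization. TOB2 was not called without a filter, and with a library left out it was called only without CYT replicate 2. The log2 fold changes ran from -0.26 for CNOT3 to 0.79 for TOB2. CNOT1, the scaffold that holds the complex, had 8.58 ± 1.34 FPKM in control and 7.39 ± 2.36 FPKM in CYT cells (SD, n = 3). CNOT3 spanned 64.7 to 120 CPM in control and 36.9 to 106 CPM in CYT libraries, lowest in CYT replicate 2. TOB2, an antiproliferative adaptor that ties the complex to poly(A)-binding protein, had 60.9, 45.6 and 50.4 CPM in control and 95.9, 74.2 and 102 CPM in CYT libraries. Its groups did not overlap, the edgeR adjusted p was 0.0659 at a standard error of 0.29, and it was called higher with the replicate block (0.79, edgeR adjusted p = 0.0275). The related TOB1 had a log2 fold change of 0.19.

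Among the 9 NMD factors, 1 was called lower (11.1%) and 2 higher (22.2%), close to the 12.9% and 15.7% of all genes. The 2 higher became 0 when any control library or CYT replicate 1 was left out and with both limma fits. SMG8 and SMG9 encode the 2 subunits that bind and restrain the SMG1 kinase, and their mRNAs moved apart. SMG9 (ENSG00000105771, chromosome 19, 43727992 to 43754990, minus strand) read 61.5, 44.0 and 59.1 CPM in control and 27.4, 8.33 and 17.9 CPM in CYT libraries. All CYT values were lower, with a log2 fold change of -1.62 (standard error 0.43, edgeR adjusted p = 0.0198), and the call ended without control replicate 1, control replicate 3 or CYT replicate 3. SMG8 (ENSG00000167447, chromosome 17, 59209400 to 59215247, plus strand) read 43.5, 18.7 and 29.05 CPM in control and 94.0, 35.6 and 130 CPM in CYT libraries. It rose by 1.51 (standard error 0.49, edgeR adjusted p = 0.0454), with CYT replicate 2 inside the control range, and was called in 8 of the 15 alternative fits. Of the fits with a library left out, the call held only in that without CYT replicate 2. The ratio of SMG8 to SMG9 counts within a library, looked at after both values were seen, was 0.71, 0.43 and 0.49 in control and 3.42, 4.26 and 7.25 in CYT libraries, so CYT replicate 2 was not apart in the ratio.

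UPF2 (ENSG00000151461, chromosome 10, 11920022 to 12043170, minus strand) bridges UPF1 to the exon junction complex through UPF3 proteins. It read 8.25, 11.8 and 10.4 CPM in control and 21.5, 31.2 and 16.0 CPM in CYT libraries. All CYT values were above all control values, and the log2 fold change was 1.17 (standard error 0.35, edgeR adjusted p = 0.0334), called in 7 of 15 alternative fits and in 1 of the 6 that left out a library, that without CYT replicate 3. UPF1, the central helicase, had a log2 fold change of -0.25. UPF3A and UPF3B had 0.14 and 0.17, the endonuclease gene SMG6 had -0.56 (edgeR adjusted p = 0.308), and the kinase gene SMG1 had 0.32. SMG5, which recruits decay enzymes to phosphorylated UPF1, was the highest member per length, with 51.2 ± 10.6 FPKM in control and 52.1 ± 16.2 FPKM in CYT cells (SD, n = 3). SMG1 has 7 annotated pseudogene copies in the table, whose counts summed to between 94.3% and 153% of those of SMG1 in a library, so reads could be split among them and its value is uncertain.

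The AU-rich element binding genes showed no call by edgeR (0 of 3, and 0 with an unadjusted p under 0.05) and none by DESeq2. ZFP36, also known as tristetraprolin, had 10.04, 5.005 and 12.4 CPM in control and 18.7, 7.47 and 17.8 CPM in CYT libraries, a log2 fold change of 0.68 (standard error 0.46, edgeR adjusted p = 0.296). Replicate 2 was the lowest library in both groups. ZFP36L1 went from between 47.2 and 56.9 CPM to between 37.3 and 38.5 CPM without overlap (log2 fold change -0.48, edgeR adjusted p = 0.212). ZFP36L2 had a log2 fold change of -0.065.

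Ratios of related genes within a library need no scaling between libraries, and 12 pairs were compared. Library effects tied to GC content need not cancel in a ratio, and this was not tested. The longest transcript of DIS3, for example, has 39.1% GC and that of DIS3L2 53.5%. In 5 pairs the ratios of the 2 groups did not overlap. With 3 libraries against 3, the exact permutation test (two-sided) cannot give a p under 0.1, and these 5 pairs had that p, which is 0.24 after Benjamini-Hochberg adjustment over the 12. The ratio of CNOT7 to CNOT8 counts was 1.13, 1.33 and 2.47 in control and 0.36, 0.33 and 0.37 in CYT libraries, a shift of -2.14 on the log2 scale. CNOT8 thus went from the fewer to the more counted of these alternative deadenylases in every library. DIS3 against DIS3L stood at 0.29, 0.49 and 0.42 in control and at 0.98, 1.49 and 1.06 in CYT libraries. Against DIS3L2, DIS3 stood at 0.37, 0.92 and 0.74 and then at 2.12, 6.21 and 1.75. DCP1A to DCP1B fell from between 7.19 and 11.4 to between 2.81 and 5.80, and ZFP36L1 to ZFP36L2 from between 1.19 and 1.46 to between 0.85 and 1.10. Unpaired, the ratios of CNOT6 to CNOT6L, TOB1 to TOB2, UPF3A to UPF3B, XRN1 to XRN2, DIS3L to DIS3L2, and ZFP36 to each of its relatives overlapped, with exact permutation p from 0.2 to 0.8. Within same-numbered libraries, 3 of these 7 pairs differed with 1 sign throughout, a description with no test. The log2 differences of CYT minus control were 1.45, 1.147 and 0.82 for ZFP36 to ZFP36L1. For ZFP36 to ZFP36L2 they were 0.68, 0.81 and 0.70, and for TOB1 to TOB2 they were -0.35, -0.48 and -0.97.

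**Figure D4:**
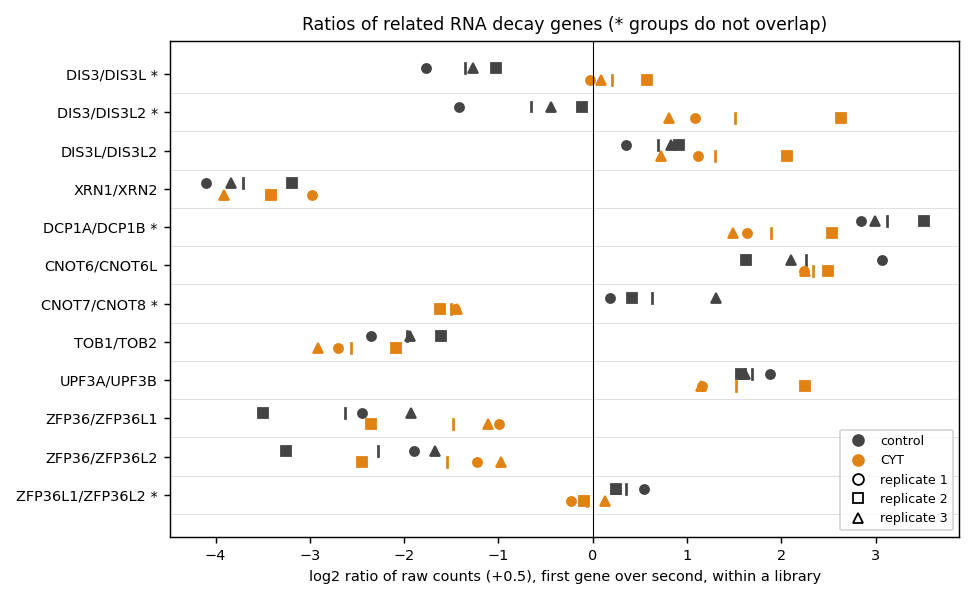
Log2 ratio of raw counts of 12 pairs of related genes within each library (horizontal axis), with control in gray and CYT in orange, replicates by symbol and a vertical tick at the group mean. Stars mark the 5 pairs whose groups do not overlap, among them CNOT7 to CNOT8, with means of 0.63 in control and -1.51 in CYT libraries.

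Another 66 genes that work with these machines were followed by a hand-written list, and 14 were called lower (21.2%) and 4 higher (6.06%), against 12.9% and 15.7% of all genes. In the list of the LSM ring and decapping factors, 5 of 15 were lower. LSM2, a ring subunit shared by the decapping activator and the spliceosome, went from 132 ± 24.6 to 13.5 ± 4.59 CPM (SD, n = 3; log2 fold change -3.29, edgeR adjusted p = 0.000613). PATL1, which carries the ring to DCP2, fell by 1.88 and the scavenger decapping enzyme gene DCPS by 1.77 on the log2 scale. LSM14A was also called lower, in all 15 alternative fits too. LSM6 was called lower (-1.69) with 8.37, 32.8 and 11.2 CPM in control libraries, and without control replicate 2 its log2 fold change was -0.88 and not called. It was also lost without CYT replicate 1 or CYT replicate 3. LSM3 was called higher. Among exosome partners, the cytoplasmic SKI helicase gene SKIV2L, the ribosome rescue gene PELO and the nuclear cofactor C1D were lower (3 of 15), with log2 fold changes of -1.73, -1.08 and -1.46. Of the deadenylation and silencing genes, AGO1 and AGO2 were lower and the antiproliferative genes BTG1 and BTG2, which activate CCR4-NOT, were higher, at 0.89 and 1.93. Each of these 4 genes was called in 1 of the 6 fits with a library left out, that without CYT replicate 2, and in the other 5 fits no gene of this list was called. In the NMD and exon junction list, CASC3, MAGOHB, NBAS and GSPT1 were lower, and EIF4A3, the helicase core of the exon junction complex, rose by 1.05 (edgeR adjusted p = 0.0143). CASC3 kept its call in all 15 alternative fits. The 4 lower genes of that list became 2 without control replicate 2 and 1 without control replicate 1, control replicate 3, CYT replicate 1 or CYT replicate 3. EIF4A3 was not called without control replicate 3 or CYT replicate 1. The 3 exosome partners became 1 without control replicate 3, CYT replicate 1 or CYT replicate 3, where SKIV2L remained, and LSM3 was called only without CYT replicate 2 among those fits. Of 13 other RNA-binding regulators and uridylation genes, 0 were called by edgeR, with 2 at an unadjusted p under 0.05, and 0 by DESeq2. With the replicate block 4 of the 13 were called lower, where 19.8% of all genes were. Without CYT replicate 2 there were also 4, against 17.0% of all genes, and with the GC content and length correction 5 were lower, against 21.4%, and 1 higher. Those of the blocked fit included the RNA-binding protein genes KHSRP and PUM2 and the uridylyltransferase gene TUT4, with log2 fold changes of -0.89, -0.87 and -1.03. The block also called PABPN1 of the exosome partner list (-0.89, edgeR adjusted p = 0.0172) and LSM7 of the LSM list (-0.92, edgeR adjusted p = 0.0358) lower.

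The mRNAs known as substrates of these pathways were also listed. Of 14 tested mRNAs with AU-rich elements, 4 were called lower (28.6%) and 3 higher (21.4%), where 12.9% and 15.7% of all genes were. The cytokine genes LIF and CSF2, the stress gene IER3 and the phosphatase gene DUSP1 were lower, with log2 fold changes of -2.997, -2.999, -2.68 and -1.10, while FOS and the chemokine genes CXCL3 and CXCL8 rose by 2.05, 2.26 and 1.49. DUSP1 was called in 2 and CXCL8 in 3 of the 6 fits with a library left out. LIF, CSF2, IER3, FOS and CXCL3 were called in all 6. Of 8 mRNAs described as NMD substrates, 1 was called lower (12.5%) and 3 higher (37.5%). ATF3, GADD45B and DDIT3 were higher, at 2.87, 2.24 and 2.17, and ATF4 was lower at -2.02. GAS5, a spliced noncoding NMD substrate, was not called (log2 fold change -0.56, edgeR adjusted p = 0.156). With the replicate block, VEGFA (-0.66, edgeR adjusted p = 0.0493) and TBL2 (-0.70, edgeR adjusted p = 0.042) were also called lower. Transcription also sets these levels, and decay rates were not measured.

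GC content moved with the libraries. Over the 52 members, the deviation of a library from its group mean on the log2 CPM scale correlated with the GC content of the longest transcript at r = -0.79 for CYT replicate 2 and -0.58 for control replicate 2. It correlated at 0.68, 0.56 and 0.77 for control replicate 1, CYT replicate 1 and CYT replicate 3, and at -0.12 for control replicate 3. These are descriptions across genes that share libraries. Over 15542 genes the same correlations ran from -0.74 for CYT replicate 2 to 0.62 for CYT replicate 3. For the log2 fold change itself the correlation with GC content was -0.12 over the members. DCP2 (37.3% GC) was highest in replicate 2 of each group, and UPF1 (60.5%) and SMG5 (57.6%) were lowest there. Not all members followed this pattern. DCP1B (37.4%) was lowest in replicate 2 of each group, and EXOSC5 (61.5%) was highest in control replicate 2. With GC content and length corrected in the blocked fit, 15 members were called lower and 7 higher, against 21.0% and 23.9% of all genes. All 13 genes called without the block or the correction were among them. They were joined by CNOT7, DCP1A, DIS3L, EXOSC9 and XRN2 as lower and by DIS3, TOB2, ZFC3H1 and ZFP36 as higher.

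**Figure D5:**
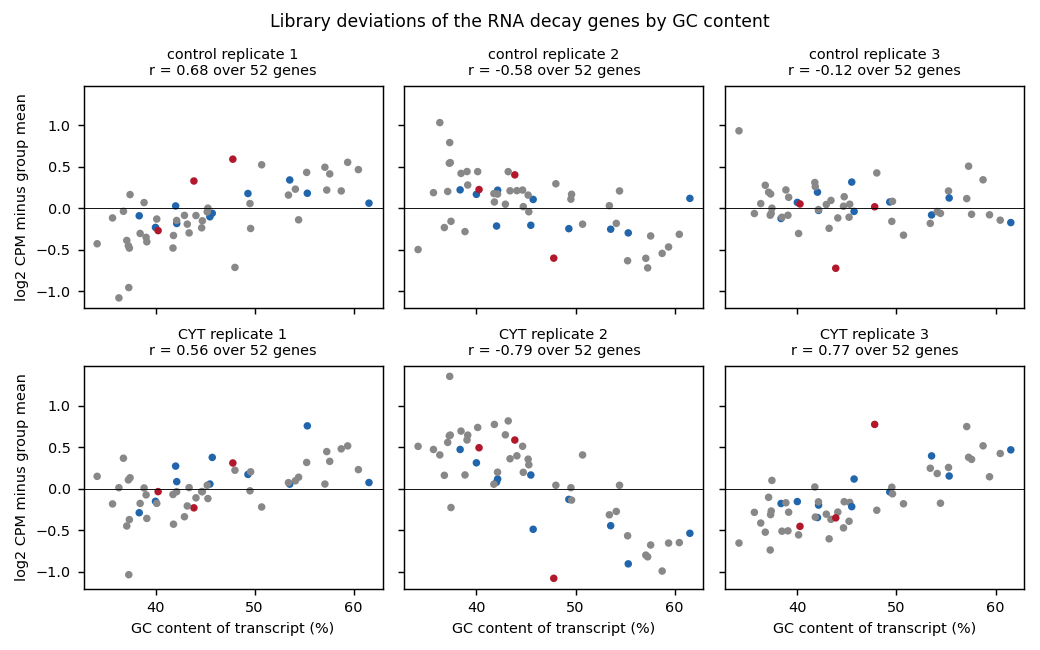
Each panel is 1 library and each point 1 of the 52 RNA decay genes, with GC content of the longest transcript (horizontal, percent) against log2 CPM minus the mean of the library's group (vertical). Blue, red and gray mark genes called lower, called higher and not called; the slope is downward in both replicate 2 libraries and upward in control replicate 1, CYT replicate 1 and CYT replicate 3.

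Level, length and GC content of the members are given as a description. The 10 genes called lower had a median control level of 6.56 FPKM and a median longest transcript of 2615.5 bases. The 39 that were not called had medians of 2.90 FPKM and 4561 bases, and the 3 called higher had 2.52 FPKM and 3477 bases. Median GC content was 45.6% in the lower, 43.9% in the higher and 43.4% in the other members. No test was made on these properties. The loci of 50 of the 52 members equal those of GENCODE release 29, and 27 of the 52 share exon sequence with another annotated gene, including 8 of the 13 called.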

How the data were processed

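RNA sequencing of 3 control and 3 CYT libraries was analysed, with groups and replicate numbers from the sample titles. The authors separated mRNA, sequenced the cDNA (Illumina NovaSeq), filtered out reads of low quality, adapters and rRNA, and aligned the remainder with Hisat2. The submitters' processing notes name hg38 and FastQC 0.12.1. They deposited raw counts per gene and FPKM values, the latter named as from Stringtie. The methods name only "edge" software for statistical quantification. The counting program, annotation and strand setting are not given in the sources used here.

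Counts were tested with edgeR 4.0.16 in R 4.3.3 (TMM, filterByExpr with minimum count 10, quasi-likelihood test, Benjamini-Hochberg over 15572 genes), without a block. A standard error is the absolute log2 fold change divided by the square root of F. Total counts and the biological coefficient of variation of 37.5% set the precision. Replicates differed by far more than sampling noise (chi-square per gene of at least 24.8 in each pair). Paralog ratios had 0.5 added to each count. Deviations of same-numbered libraries correlated at 0.188, 0.458 and 0.124 across genes; all exceed 0.1, so the numbers were read as pairs and the blocked value stands beside results it changes. The pairing rests on these numbers alone, and 2 differently numbered combinations exceeded 2 of these values, control replicate 1 with CYT replicate 3 (0.303) and control replicate 3 with CYT replicate 1 (0.201). The edgeR fits with and without the block, DESeq2 and limma were tested on simulated data, and the GC content and length correction was not. The simulated counts had the same dispersion for every gene, few changed genes and no replicate or GC effect. They therefore cannot show how the block or the error rate performs in these libraries.

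Alternatives were upper-quartile normalization, DESeq2 1.42.0, leaving the filter out, requiring a mean CPM of 5, limma 3.58.1 on log2(FPKM + 1) and log2(FPKM + 0.1), the replicate block, and leaving out each library. A correction for GC content and length, fitted per library on the longest GENCODE transcript, was added after the data were seen. The members, lists and pairs were chosen with earlier results of these data known. Values by library were given for called members, their paralogs and some other members. Of the other lists, the genes called are named. Promoter windows are from RefSeq, of which 46 of the 52 members had an entry, and SMG8 had none.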

Additional observations from a re-analysis of the deposited data

How the results depend on the processing

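No called member changed direction in any of the 15 alternative fits. EXOSC8, MPHOSPH6 and PARN were called in all of them. The 10 members called lower became 4 to 15 with a library left out, fewest without control replicate 1 (4), control replicate 3 (5) or CYT replicate 3 (5), and most without CYT replicate 2. Of all genes, 7.41% were called lower without control replicate 1, 7.36% without control replicate 3, 7.63% without CYT replicate 3 and 17.0% without CYT replicate 2. The 3 called higher became 0 to 3 in those fits, 5 with the replicate block, 6 with GC content and length correction and 7 with that correction and the replicate block. The shares of all genes called higher were 10.3% to 18.6% with a library left out, 24.6% with the correction and 23.9% with the correction and block. Members past both criteria, 13, were 8 with limma on log2(FPKM + 1), where EXOSC3, SMG8 and UPF2 were not called and EXOSC10 and DIS3L2 changed by less than 1, and 4 to 11 with a library left out. The median over members ran from -0.24 to 0.026 in those fits. Other decay genes called lower, 14, were 9 with upper-quartile normalization and 22 with the GC and length correction in the blocked fit. They were 6 to 21 with a library left out. The shares of all genes called lower were 10.4%, 21.0% and 7.36% to 17.0% in those fits. Other decay genes called higher, 4, were 2 without a filter, where 9.20% of all genes were and more genes were tested. They were 8 with GC content and length correction, with or without the replicate block, and 0 to 5 with a library left out. Substrate calls, 11, stayed between 9 and 13. Paralog pairs apart between the groups, 5, were 5 to 9 with a library left out, which can only keep or add such pairs and so measures no dependence, and with the replicate block, by same-numbered pairing, 8 pairs had a difference of 1 sign in every same-numbered pair. Where no cause is named, it was not tested.

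Of the uncalled members, 20 changed sign in at least 1 alternative. With upper-quartile normalization, the log2 fold changes were 0.082 for EXOSC4, 0.044 for EDC4, 0.0054 for CNOT6L and 0.082 for ZFP36L2. With a mean of at least 5 CPM, EXOSC4 was 0.033 and ZFP36L2 0.034. Without a filter, PAN2 was -0.042 and SMG5 -0.046. SMG5 was -0.0089 and -0.0098 with limma on log2(FPKM + 1) and log2(FPKM + 0.1), and CNOT6L was 0.069 with the latter. With the replicate block, CNOT6L was 0.071 and SMG5 -0.031. GC content and length correction gave 0.26 for EDC4, -0.028 for PNRC2, 0.14 for UPF1, -0.024 for UPF3A and 0.074 for ZFP36L2. With the replicate block added, it gave 0.25 for EDC4, -0.020 for PNRC2, 0.090 for CNOT6L, 0.15 for UPF1, -0.035 for UPF3A and 0.079 for ZFP36L2. With a library left out, the ranges were -0.48 to 0.24 for EXOSC4, -0.063 to 0.33 for ZCCHC8, -0.014 to 0.44 for RBM7, -0.51 to 0.95 for DCP2, -0.40 to 0.19 for EDC4, -0.31 to 0.41 for PNRC2 and -0.61 to 0.10 for XRN1. They were -0.16 to 0.44 for CNOT6, -0.54 to 0.54 for CNOT6L, -0.21 to 0.33 for PAN2, -0.086 to 0.61 for PAN3, -0.036 to 0.88 for CNOT2, -0.49 to 0.094 for CNOT3 and -0.52 to 0.014 for CNOT10. For NMD and AU-rich element factors they were -0.43 to 0.012 for UPF1, -0.38 to 0.35 for UPF3A, -0.069 to 0.32 for UPF3B, -0.22 to 0.60 for SMG1, -0.15 to 0.28 for SMG5 and -0.16 to 0.038 for ZFP36L2. The replicate block changed no other call of a member than the 6 given above. Depth limits DCP1B, whose largest count was 90, and it was not tested with a mean of at least 5 CPM.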
